A study of Mus musculus with 8 samples.

Results

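The 28 genes described here are the mouse tetraspanins other than Tspan8. They were chosen by name, as the protein-coding genes of the GENCODE M21 annotation (mm10) whose symbol is Tspan followed by a number, without Tspan8, together with Cd9, Cd37, Cd53, Cd63, Cd81, Cd82, Cd151, Upk1a and Upk1b. They are 28 of 21938 protein-coding genes. Of the 57124 accessible regions in the series, 96 overlapped the body of a member or the 5 kb on either side of it, and each was given to the member with the nearest transcription start. The assay was ATAC-seq, which reads out accessible DNA as the places where a transposase can insert, and the cells were medullary thymic epithelial cells (mTECs). These cells of the thymus present tissue-restricted self-antigens to developing T cells, and Tspan8 is such an antigen.

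All samples were mTECs isolated by flow cytometry from the thymus of wild-type (wt) mice, without a transgene, deletion or treatment in any group. Neither strain nor age is in the labels. The 4 groups were Tspan8neg MHCIIlow, Tspan8neg MHCIIhigh, Tspan8pos MHCIIlow and Tspan8pos MHCIIhigh, with 2 biological replicates in each, 8 samples in all. The regions belong to the peaks of all these samples merged into a single set, so a region marks chromatin that was accessible in some of these mTECs, and the groups behind it cannot be told apart. The values are positions and widths, without replicate error, and no test was run. Of 12 thymic epithelial marker genes, all 12 had a region at the promoter, as had 3 of 3 tuft cell genes, against 0 of 10 T and B cell genes, 0 of 4 myeloid genes and 1 of 6 mesenchymal and endothelial genes (Kdr). Counted as a region over a start, the numbers were 12 of 12 thymic epithelial genes, 2 of 3 tuft cell genes, 2 of 6 mesenchymal and endothelial genes (Kdr and Pdgfra) and 0 in the other lists. Over all coding genes the shares were 48.6% at the promoter and 56.4% over a start. The marker lists were chosen with earlier results of these data known, so these counts only describe the lists. The thymic epithelial list also holds Epcam and H2-Ab1 (MHCII), whose proteins were used to sort the cells. Where the promoter had no region, the nearest one was centred 239 to 145065 bases from a start in T and B cell genes. In myeloid genes it was 8973 to 31032 bases away, and in mesenchymal and endothelial genes 118 to 24450.

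Tetraspanins are small proteins that cross the membrane repeatedly and bind partner proteins, largely through an extracellular loop. They gather integrins, immunoglobulin-family proteins and proteases into membrane patches called tetraspanin-enriched microdomains or the tetraspanin web. Cd9 and Cd81 are also known for their part in membrane fusion and antigen receptor complexes, Cd63 for late endosomes and exosomes, and the TspanC8 members for guiding the metalloprotease ADAM10, which sheds Notch and cadherins. Cd37, Cd53 and Tspan32 are known from leukocytes, and Upk1a and Upk1b from the plaques of the bladder lining.

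A region was present at the promoter of 18 of the 28 members, or 64.3%, against 48.6% of all 21938 protein-coding genes. A promoter here held the centre of a region between 1000 bases upstream and 100 bases downstream of a transcription start. A region lay over a transcription start itself in 21 members, or 75%, against 56.4% of all coding genes, since the broad regions of Cd81, Cd9 and Tspan12 covered a start but had their centre further downstream. At least 1 region overlapped the gene body or its 5 kb flanks in 26 members, or 92.9%, against 74.7% of all coding genes. Cd53 and Upk1b had none. Members were longer than coding genes in general, with a median length of 27500 bases against 17400, and a longer window can hold more regions. By role, the count at promoters was 5 of 6 in the TspanC8 group, 3 of 5 in the widely expressed web tetraspanins, 10 of 12 in the other numbered members, 0 of 3 in the leukocyte tetraspanins and 0 of 2 in the uroplakins.

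**Figure D1:**
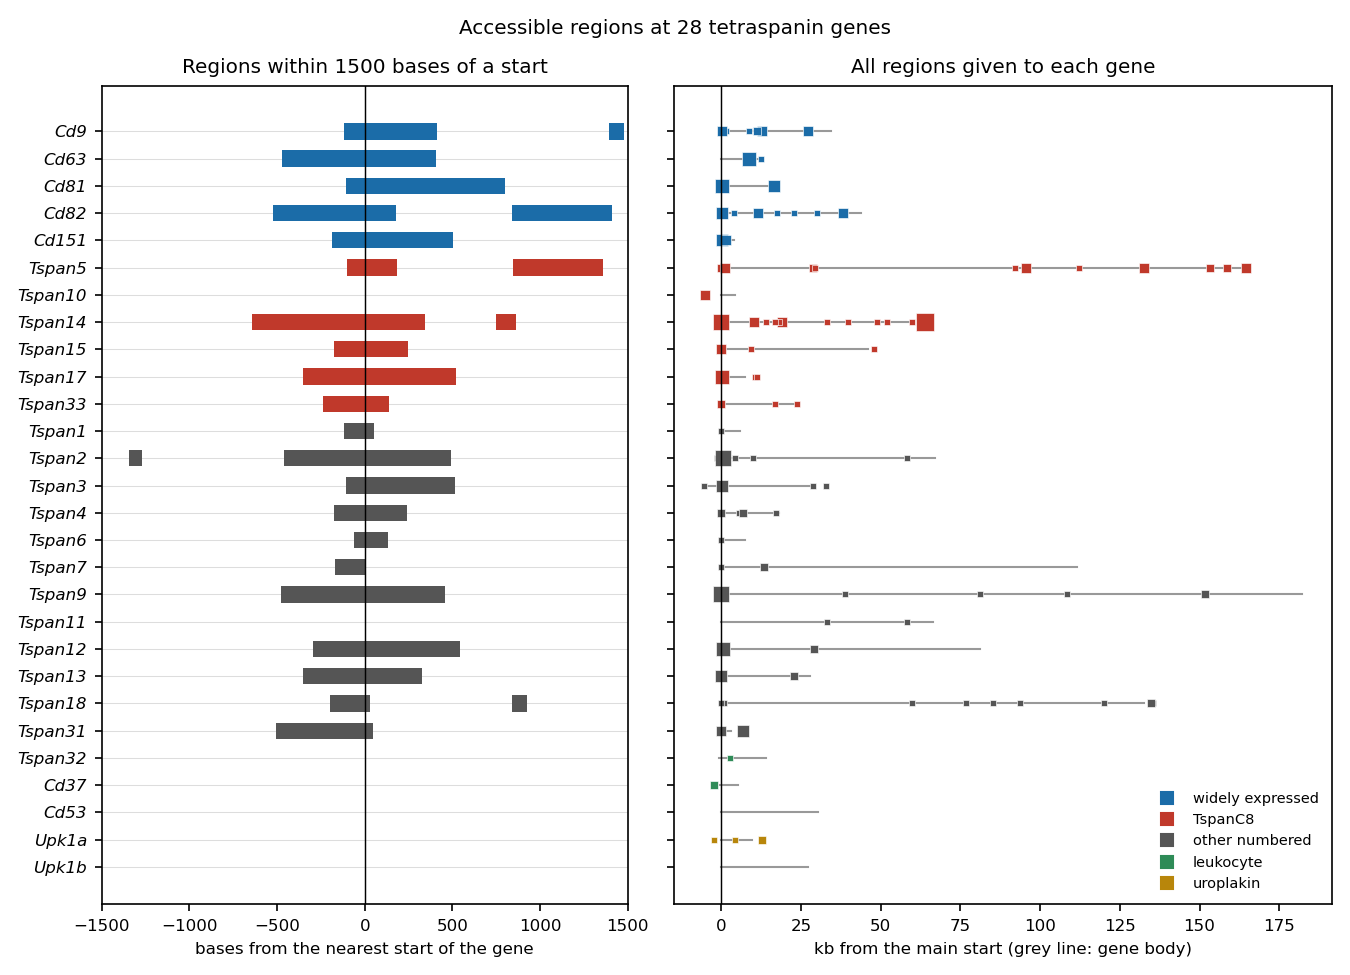
Regions at the 28 members, coloured by role. The left panel draws every region within 1500 bases of a start to scale, in bases from that start. The right panel draws each region given to a gene as a square that grows with its width, in kb from the main start, with the gene body as a grey line. The leukocyte tetraspanins, the uroplakins, Tspan10 and Tspan11 are empty at the start, and Tspan5, Tspan14 and Tspan18 have the most regions.

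The sequences of 6 regions are shown here because the results below return to them: the widest promoter region (Tspan14) and the narrowest (Tspan1), the promoter regions of Tspan17 and Cd82, which hold the most words of the Krüppel-like factor (KLF) type, that of Cd151, which holds 2 AP-1 words, and the widest region of any member outside promoters, downstream of Tspan14. Each is a stretch free of annotated exons within the region, from RefSeq's copy of GRCm38 (mm10), written in the direction of transcription of the gene. Words in the rest of a region are not shown, and the printed stretches of Tspan17 and Cd82 hold 1 KLF word each. Capitals mark the words searched, on either strand: CCGGAA or AGGAAG for ETS factors, GGGTGTGG or GGGCGTGG for KLF, TGACTCA or TGAGTCA for AP-1 and ATGCAAAT for POU factors. The Cd82 and Cd151 sequences were chosen after their values were seen.
Tspan14 promoter region (chr14:40966808-40967107, minus strand): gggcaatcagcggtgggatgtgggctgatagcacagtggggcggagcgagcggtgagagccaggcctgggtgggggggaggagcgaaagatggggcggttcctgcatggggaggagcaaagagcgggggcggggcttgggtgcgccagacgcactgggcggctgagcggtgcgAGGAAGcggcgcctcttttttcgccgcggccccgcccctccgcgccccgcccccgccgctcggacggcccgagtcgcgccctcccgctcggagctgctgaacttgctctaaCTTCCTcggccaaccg
Tspan17 promoter region (chr13:54789077-54789376, plus strand): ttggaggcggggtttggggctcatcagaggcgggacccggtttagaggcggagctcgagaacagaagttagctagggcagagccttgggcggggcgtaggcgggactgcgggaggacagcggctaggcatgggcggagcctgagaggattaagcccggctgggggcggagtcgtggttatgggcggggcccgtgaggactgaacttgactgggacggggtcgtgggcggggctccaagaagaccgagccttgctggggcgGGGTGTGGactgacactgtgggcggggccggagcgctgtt
Cd82 promoter region (chr2:93462503-93462705, minus strand): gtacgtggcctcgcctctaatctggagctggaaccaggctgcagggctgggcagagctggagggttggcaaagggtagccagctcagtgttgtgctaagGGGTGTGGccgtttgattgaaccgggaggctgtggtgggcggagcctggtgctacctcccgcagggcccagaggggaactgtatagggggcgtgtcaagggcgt
Cd151 promoter region (chr7:141468897-141469168, plus strand): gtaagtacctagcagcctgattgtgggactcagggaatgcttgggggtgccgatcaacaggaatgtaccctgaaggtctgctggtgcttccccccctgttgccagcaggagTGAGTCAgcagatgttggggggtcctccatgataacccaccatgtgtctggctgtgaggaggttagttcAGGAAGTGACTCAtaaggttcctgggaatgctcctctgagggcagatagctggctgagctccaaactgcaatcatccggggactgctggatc
Tspan1 promoter region (chr4:116167602-116167720, minus strand): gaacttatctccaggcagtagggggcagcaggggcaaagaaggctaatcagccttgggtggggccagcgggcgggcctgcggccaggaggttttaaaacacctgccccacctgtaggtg
Tspan14 downstream region (chr14:40902863-40903162, minus strand): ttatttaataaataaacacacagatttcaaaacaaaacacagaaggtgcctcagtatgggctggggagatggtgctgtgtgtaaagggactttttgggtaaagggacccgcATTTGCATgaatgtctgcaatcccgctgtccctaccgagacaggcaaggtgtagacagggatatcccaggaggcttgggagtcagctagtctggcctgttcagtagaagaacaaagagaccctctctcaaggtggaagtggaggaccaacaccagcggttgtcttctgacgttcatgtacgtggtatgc

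The widely expressed web tetraspanins all had a region over a start, and these regions were 530 to 906 bases wide, against a median of 585 bases for regions over coding starts, with those of Cd9 and the later start of Cd151 below it. Cd81, a widely expressed tetraspanin of immune and epithelial cells, had a region of 906 bases over its start (chromosome 7, 143052631 to 143053536), with the centre 344 bases into the gene. Cd63, the lysosomal and exosomal tetraspanin, had 875 bases (chromosome 10, 128909229 to 128910103), centred 33 bases from a start that lies inside the gene. The most upstream principal start of Cd63, at 128900989, had no region, and the 300 bases around it held 0 CpG dinucleotides. Cd82, a suppressor of cell migration, had 698 bases (chromosome 2, 93462326 to 93463023), centred 172 bases upstream of a start. Cd9 had 530 bases (chromosome 6, 125494381 to 125494910), centred 146 bases downstream of its start. Cd151, the partner of laminin-binding integrins, had separate regions over an early and a later start. The upstream region covered 650 bases, with its centre 176 bases into the gene, and the second covered 533 bases with its centre 80 bases past a later start. These 5 genes held 19 regions in all, of which 7 were in Cd82 and 6 in Cd9.

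In the TspanC8 group, which regulates ADAM10, 5 of 6 genes had a promoter region, and the widths ran from 282 to 988 bases. Tspan14 had the widest promoter region of any member, 988 bases (chromosome 14, 40966464 to 40967451), and Tspan17 had 871 (chromosome 13, 54789026 to 54789896). The promoter regions of Tspan15 and Tspan33 covered 418 and 381 bases. Tspan5 had a narrow region of 282 bases (chromosome 3, 138742095 to 138742376) with the highest GC content among the members' promoter regions, 81.2%. Tspan10, known from pigmented cells, had no region at its start. The nearest region, 455 bases wide, was centred 5047 bases upstream, 111 bases from the start of the neighbouring gene Nploc4. The group held 33 regions, and Tspan14 and Tspan5 alone had 12 and 11 of them. Adam10, the protease partner of this group, had a region of 926 bases over a start, centred 126 bases from it. Adam17, a protease from the general list of tetraspanin partners below, had a promoter region of 768 bases.

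Among the other numbered members, 10 of 12 had a promoter region. The broadest were those of Tspan2, described in oligodendrocytes, with 953 bases, and Tspan9, described in platelets, with 938 bases and its centre 9 bases from a start. Tspan13 had 675 bases, Tspan3 622 and Tspan31 554. The 413 bases at Tspan4, a component of migrasomes, also covered the promoter of Polr2l, which is transcribed in the opposite direction. Tspan18, described in endothelium, had 228 bases (chromosome 2, 93334461 to 93334688). Tspan12, a part of the Norrin receptor with Fzd4, had 840 bases (chromosome 6, 21851545 to 21852384), whose centre lay 124 bases downstream of a start. By its centre, this region was at the promoter of another gene, Gm30270. Tspan11 had no region at its start and 2 narrow regions of 152 and 77 bases inside the gene, the nearer 33252 bases away.

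The narrowest promoter regions were 170 bases at Tspan1, 176 at Tspan7 and 191 at Tspan6, and no other member fell under 200 bases. Tspan6 and Tspan7 are the members on chromosome X. Over all coding genes, the median width of a promoter region was 452 bases on X (n = 346) and 512 on the autosomes (n = 10335), and 36.1% of the 948 coding genes on X had one. Tspan1 is on chromosome 4, from 116161869 to 116167601, and its region lay from 116167551 to 116167720, centred 35 bases upstream of its only start. The promoter region of Tspan8 itself was about as narrow, with 175 bases centred 34 bases upstream, and Tspan8 had 4 regions of 92 to 223 bases within its body and flanks.

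**Figure D2:**
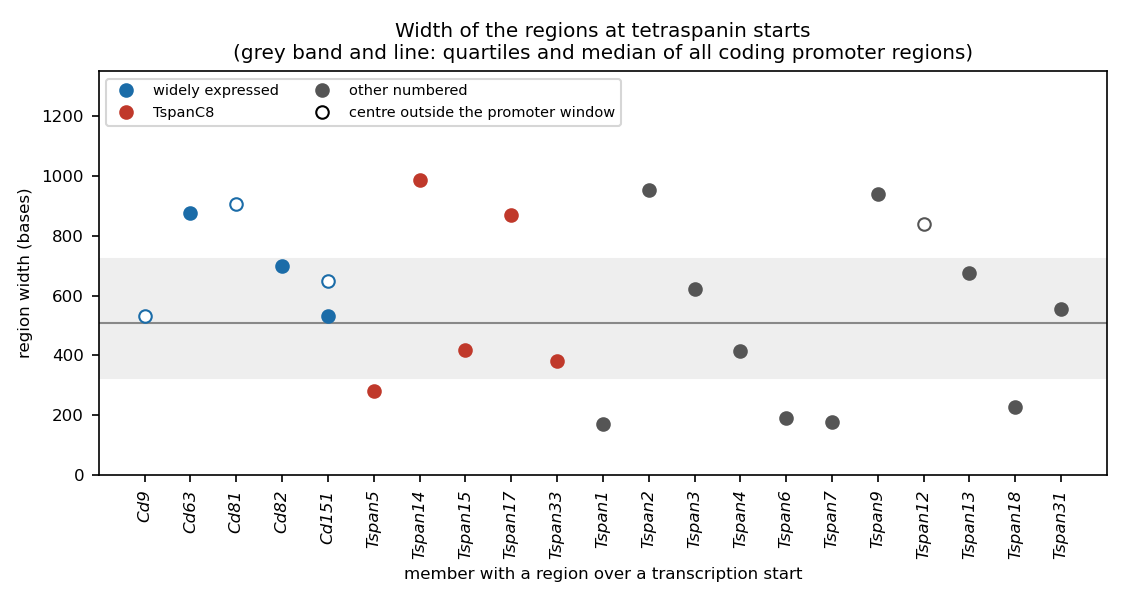
Width in bases of every region over a transcription start, for the 21 members that had one, coloured by role. Filled points are regions centred within the promoter window, and open points are centred further downstream. The grey band and line give the quartiles (324 and 722 bases) and the median (509 bases) of all coding promoter regions. The web tetraspanins sit between 530 and 906 bases, whereas Tspan1, Tspan6, Tspan7, Tspan18 and Tspan5 lie under the band.

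Across the 18 promoter regions the median width was 544 bases, against 509 for the 10681 promoter regions of all coding genes. Of the 18, 10 exceeded that median, 13 the lower quartile and 5 the upper quartile. Median GC content was 67.8% against 65.3%. Of the 18 regions, 17 overlapped both an exon and a UTR of the member. A region over a start reaches the first exon by position, so this count describes placement only. Counting every region over a start, the members' 22 regions had a median of 588 bases, against 585 for 11829 regions over coding starts. Both medians lay within the quartiles of coding genes, and the members themselves ran from 170 to 988 bases.

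Neither the leukocyte tetraspanins nor the uroplakins had a region over a start. Cd37 lies on chromosome 7 from 45233632 to 45239115. The only region in its window, 377 bases wide, was at the promoter of the neighbouring Slc6a16, centred 1941 bases upstream of Cd37. Tspan32 had a single region of 88 bases, 2536 bases downstream of a start, at the promoter of Tspan32os, the gene on the opposite strand. The region nearest to the start of Cd53 was 68165 bases away, and that nearest to Upk1b was 57806 bases away. Upk1a had 3 regions. That of 87 bases lay 2428 bases upstream of its start, that of 143 bases was within the gene, and that of 403 bases was downstream and closer to Zbtb32. Of the uroplakins' heterodimer partners, Upk3a had a promoter region of 107 bases, and Upk2 and Upk3b had none over a start. Cd4 and Cd8a, the T cell co-receptors, also had none.

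The main starts with and without a region differed in their CpG content, in the members as over all genes. The main start of each gene was chosen from the annotation without regard to the regions, and the ratio of observed to expected CpG was taken in the 300 bases from 250 before to 50 after it. A region lay over the main start in 19 members, against 52.2% of all coding genes. The regions of Cd63 and Tspan12 lay over another start of the gene and left the main start uncovered. In the 19 members the median ratio was 0.78, with a range from 0.272 to 1.08, and 16 of 19 reached 0.6. Over all 11446 coding genes with a region over the main start the median was 0.793, and 79.3% reached 0.6. In the other 9 members the median was 0.218, with a range from 0.0 to 0.469, and 0 of 9 reached 0.6. Over all 10492 coding genes without such a region, the median was 0.219 and 11.4% reached 0.6. Split by promoter region instead, the contrast was less sharp. Of the 18 members with a promoter region 14 reached 0.6, against 72.6% of all such genes. Of the 10 without one 2 did (Cd81 and Cd9), against 22.4%. The highest ratio was at Tspan5, with 42 CpG in 300 bases, and the lowest were at Cd63, with 0, and Tspan10, with 1. Tspan1 had a region over its main start at a ratio of 0.272, Tspan2 at 0.433 and Cd82 at 0.568.

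The bases directly upstream of 4 main starts show this contrast. Of those of Tspan5 (TspanC8) 100 bases, the ones nearest to the start, lay in a region, of those of Tspan13 all 239 did, and of those of Tspan10 (TspanC8) and Cd53 (leukocyte) 0 did. Each CpG is in capitals, and the last base is the one before the main start, or, for Tspan13, the nearest base before it that is outside exons. They were chosen after their values were seen.
Tspan5 bases upstream of the start (chr3:138741945-138742194, plus strand): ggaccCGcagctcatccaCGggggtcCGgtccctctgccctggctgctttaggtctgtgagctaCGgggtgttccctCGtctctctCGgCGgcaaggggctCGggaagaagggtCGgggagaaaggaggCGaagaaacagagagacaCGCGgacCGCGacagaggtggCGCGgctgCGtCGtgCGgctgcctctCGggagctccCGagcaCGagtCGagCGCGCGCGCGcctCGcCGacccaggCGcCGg
Tspan13 bases upstream of the start (chr12:36042501-36042739, minus strand): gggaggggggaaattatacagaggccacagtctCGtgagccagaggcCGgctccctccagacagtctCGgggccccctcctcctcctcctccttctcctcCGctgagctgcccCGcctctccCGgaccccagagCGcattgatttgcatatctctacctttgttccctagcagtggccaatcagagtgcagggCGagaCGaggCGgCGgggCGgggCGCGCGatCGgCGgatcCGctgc
Tspan10 bases upstream of the start (chr11:120442394-120442643, plus strand): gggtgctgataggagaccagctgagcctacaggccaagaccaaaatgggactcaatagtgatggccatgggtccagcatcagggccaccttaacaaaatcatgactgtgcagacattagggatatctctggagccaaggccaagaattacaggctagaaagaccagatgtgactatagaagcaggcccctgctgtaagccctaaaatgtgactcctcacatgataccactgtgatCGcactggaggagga
Cd53 bases upstream of the start (chr3:106790150-106790399, minus strand): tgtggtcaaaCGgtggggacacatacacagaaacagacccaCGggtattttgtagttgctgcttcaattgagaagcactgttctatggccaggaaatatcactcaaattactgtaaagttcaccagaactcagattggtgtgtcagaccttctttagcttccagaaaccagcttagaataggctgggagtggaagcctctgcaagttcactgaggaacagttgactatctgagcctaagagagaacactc

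The printed stretch of Tspan5 held 32 CpG in 250 bases and that of Tspan13 held 18 in 239, against 1 in that of Tspan10 and 2 in that of Cd53.

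**Figure D3:**
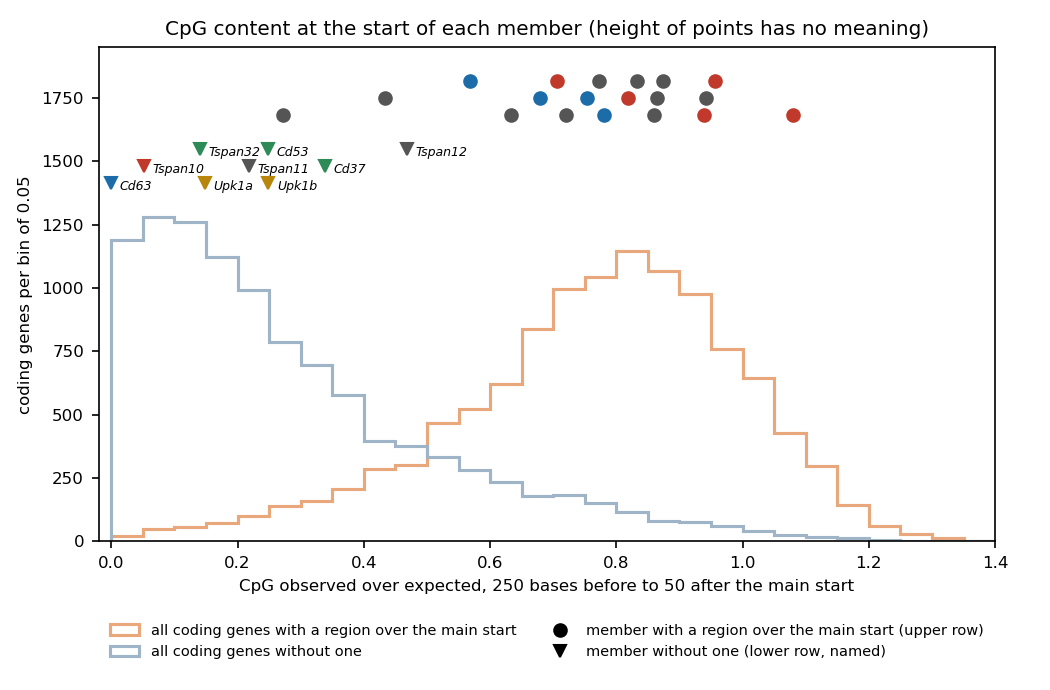
Ratio of observed to expected CpG at the main start (horizontal axis), as histograms of all coding genes with (orange) and without (blue) a region over the main start, counted per bin on the vertical axis. Points are the members, coloured by role as in the plot of widths, with leukocyte tetraspanins in green and uroplakins in gold. The 9 named members without a region there lie at or under 0.469, and 16 of the 19 with a region lie at 0.6 or more.

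Regions away from promoters were unevenly spread over the family. Of the 96 regions, 78 were not at the promoter of the member they were given to, and 50 lay over 10000 bases from any of its starts, up to 145002 bases in Tspan9. Introns held 58 regions, or 60.4%, against 40.2% of all regions, but a window built on a gene body favours introns by construction. Exons held 7, or 7.29% against 8.36% of all regions, and intergenic sequence 8, or 8.33% against 29.6%, which the same window disfavours. Promoters of any gene held 23, or 24.0% against 21.9%. The exon and promoter shares were thus near those of all regions. Of the 23, 5 were promoters of other genes only (Slc6a16, Tssc4, Gm30270, Cdk4 and Tspan32os). The region at Gm30270 also covered a start of Tspan12. For 83 of the 96 the nearest coding start was that of the member. No share over all regions was taken for this count or for the distances. Regions given to members covered 31211 bases, with a median width of 218 bases and a range of 75 to 1152, against a median of 212 over all regions.

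The members with over 5 regions, Tspan14, Tspan5, Tspan18, Cd82 and Cd9, numbered 5 and held 45 of the 96 regions, or 46.9%. A further 16 members had 2 to 5 regions and 5 had 1. Members of similar length differed widely. Among the 4 members of 50 to 100 kb, Tspan14 had 12 regions and Tspan2 had 5, whereas Tspan11 and Tspan12 had 2 each. Over the 2515 coding genes of that length the median was 3 and the 95th percentile 8. Among the 4 members of 100 to 200 kb, Tspan5 had 11 regions, Tspan18 had 9, Tspan9 had 5 and Tspan7 had 2, against a median of 4 and a 95th percentile of 13 over 1494 genes. Cd82 with 7 and Cd9 with 6 exceeded the 95th percentile of 5 over the 9157 genes of 10 to 50 kb. Over all members, the windows held 6.37 regions per 100 kb, against 3.68 over coding genes, and the median was 2.5 against 1 per gene.

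**Figure D4:**
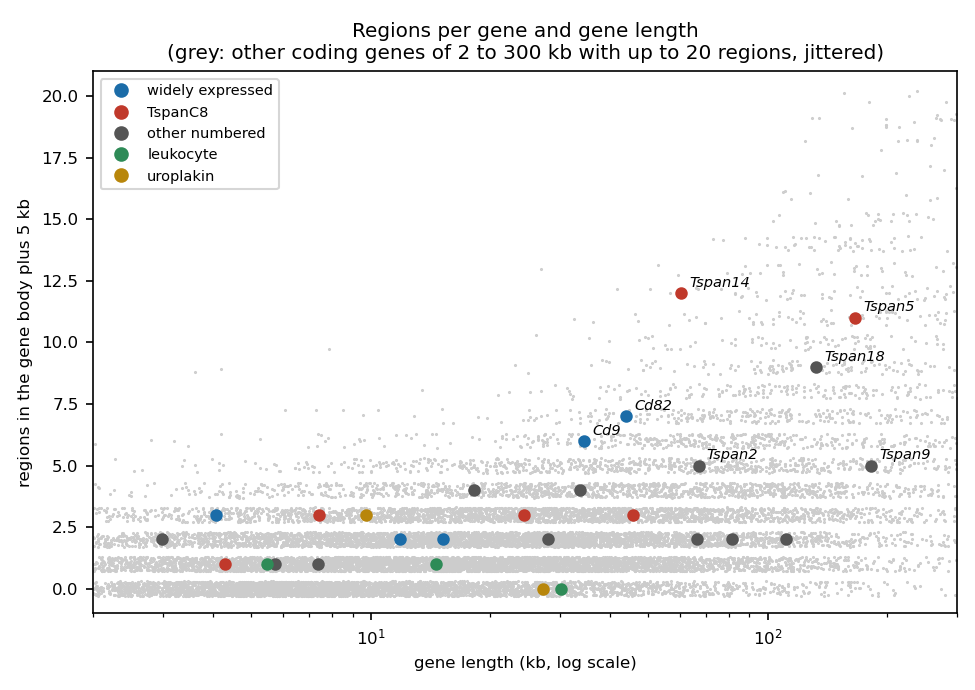
Number of regions in the gene body plus 5 kb (vertical axis) against gene length in kb (horizontal axis, log scale) for the members, coloured by role, over other coding genes in grey, which are jittered vertically. Members with 5 or more regions are named. Tspan14 has 12 regions, against a 95th percentile of 8 over coding genes of 50 to 100 kb.

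Tspan5, Tspan14 and Cd9 held many of the broad regions outside promoters. Outside promoters of any gene the members had 73 regions, with a median of 168 bases against 176 over 44623 such regions, and 17 of them, or 23.3%, reached 400 bases, against 16.1%. Tspan5 had 5 of these 17, and Tspan14 and Cd9 had 3 each. The 17 include the regions at Cd81, Cd9 and Cd151 that cover a start of the member. They also include the region of 455 bases given to Tspan10, which covers the start of Nploc4. The widest covered 1152 bases (chromosome 14, 40902438 to 40903589), past the end of Tspan14. Its centre was 63794 bases from the main start of Tspan14 and 31308 from a start inside the gene. The nearest coding start was that of Sh2d4b, 9747 bases away, so its link to Tspan14 rests on position alone. It held 3 AP-1 words, 1 ETS word and 1 POU word, the last of which is in the stretch printed above. Leaving aside regions over a start, the next widest were those of 583 bases in an intron of Tspan5, 573 in Cd82, 559 and 552 in Tspan14, 519 over an exon near the end of Tspan5, 516 in Cd9 and 512 in Tspan5. The region of 573 bases in Cd82 lay 1124 bases from a start, and that of 512 bases in Tspan5 lay 1101 bases from one. None of the 96 regions was more than 50% repeat, but the share over all regions was not taken.

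Words for ETS and KLF factors were counted because these families were studied in the same cells. Of the 18 whole promoter regions, 9 held an ETS word and 4 a KLF word. Wider regions can hold more words, and no share over all promoter regions was taken for whole regions. Cd82 had 3 KLF words, Tspan17 had 2, and Tspan15 and Tspan2 had 1 each. To compare regions of equal length, the central 200 bases were taken of the 15 promoter regions of at least 200 bases. There, 3 of 15 held an ETS word, against 36.2% of the central stretches of 9298 promoter regions of coding genes, and 3 held a KLF word, against 8.69%. A GC box, GGGCGG, was in 9, or 60.0%, against 62.3%, and the CCAAT word in 5, or 33.3%, against 26.1%. Over the whole region Tspan14 and Tspan17 had 13 GC boxes each, Tspan9 had 9, and none of the other promoter regions had more than 4. An AP-1 word was in 1, or 6.67%, against 2.5%, and the POU word in 1, or 6.67%, against 0.968%. Of the words, GGGCGTGG and GGGCGG can share bases, and AGGAAG can abut TGACTCA, as it does in the printed Cd151 stretch. The central 200 bases were likewise taken of the members' 30 regions of at least 200 bases outside promoters. There, 5 held an ETS word, or 16.7%, against 29.4% of 19656 such stretches, 3 an AP-1 word, or 10.0%, against 17.6%, 2 the POU word, or 6.67%, against 1.56%, and 0 a KLF word, against 4.65%. Over their whole length, 13 of these 30 regions held an ETS word, 5 an AP-1 word, 2 the POU word and 2 a KLF word, again without a share over all regions. With 15 and 30 regions, a single region moves these shares by several percentage points, and a match says only that the letters are present.

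Several members are neighbours in the genome. Tspan18 and Cd82 lie in the same direction on chromosome 2, with 84605 bases between them that held 2 regions. Tspan11 and Tspan9 face each other on chromosome 6 with 7418 bases between their ends and no region there. Cd151 and Tspan4 lie in the same direction on chromosome 7, 3766 bases apart, with Polr2l between them. Tspan32 and Cd81, also on chromosome 7, are 33094 bases apart without a region in between. The latter pair differed in kind, with a region of 906 bases over the start of Cd81 and none over that of Tspan32, and so did Tspan9, with 938 bases, and Tspan11, with none.

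**Figure D5:**
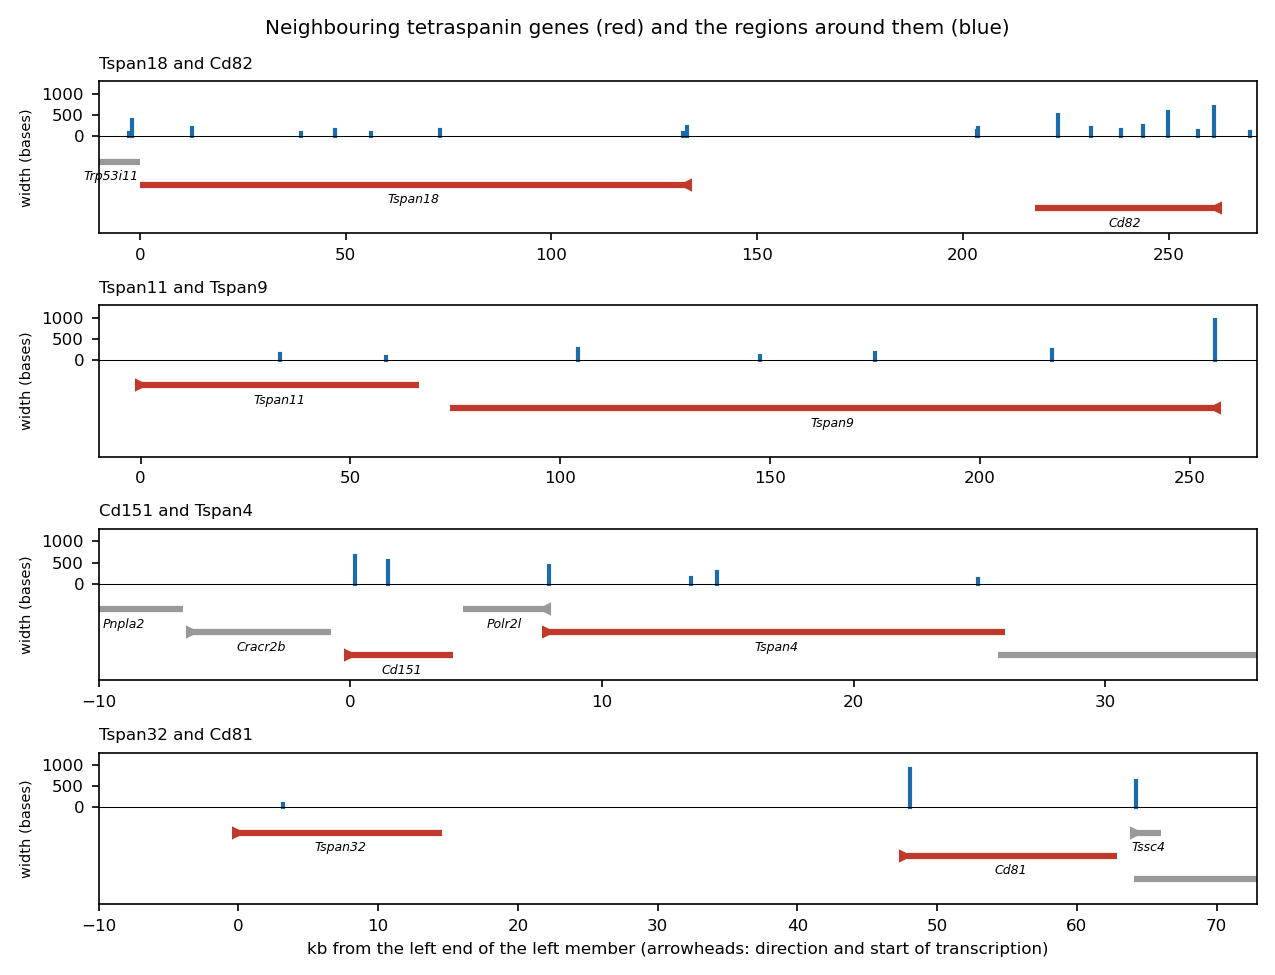
The 4 pairs of members less than 100 kb apart, in kb from the left end of the left gene. Members are red, other coding genes grey, with an arrowhead at the start of transcription, and blue bars mark regions, with their height giving the width in bases. The starts of Tspan11 and Tspan32 carry no bar, and those of Tspan9 and Cd81 carry bars of 938 and 906 bases.

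Of 31 genes whose proteins bind tetraspanins, depend on them or belong to the same superfamily, 16 had a promoter region, or 51.6% against 48.6% of all coding genes, and 22 a region over a start, or 71% against 56.4%. The share at promoters was near that of all coding genes. Epithelial adhesion partners were among those with a region. Itga3 had 599 bases and Itgb4 367 at the promoter, and Itga6 and Itgb1 had 803 and 1009 bases over a start. Epcam, which binds Cldn7 and tetraspanins, had 263 bases and Cldn7 had 422. Cd44 had 412 and Cd46 424 bases at the promoter. Igsf8, a direct partner of Cd9 and Cd81, had a promoter region of 368 bases, and Ptgfrn, the other such partner, had 884 bases over a start. Cldn1 had 503 bases over a start. Fzd4, which signals with Tspan12, had 1023 bases and its co-receptor Lrp5 623, whereas the region nearest to the start of the ligand gene Ndp was 150154 bases away. Sdcbp, which binds Cd63 and forms exosomes, had the widest region of the list, 1111 bases, Pdcd6ip had 784 over a start and Ezr, which links Cd81 to actin, had 855. Itga4 had a promoter region of 167 bases that did not reach the start, and Cr2 had 233 bases. Of the photoreceptor tetraspanins, Rom1 had a region of 767 bases at its promoter and Prph2 none.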

How the data were processed

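ATAC-seq reads of the 8 samples were aligned by the authors to mm10 with Bowtie2. The authors removed mitochondrial, multimapping, low-quality and duplicate reads with SAMtools and Picard, called broad peaks with MACS2 and joined them with bedtools. Whether peaks were called per sample is not given in the sources used here. Per the file headers, featureCounts 2.0.3 counted reads. The deposited values used were the start, end and width of each merged region, which belong to no sample. Peak calling and merging set the widths, and copies of repeated sequence are under-represented since reads with several alignments were dropped.

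A further 8 columns of counts per sample were not used, because their names match no label. Groups could therefore not be compared. Depth and the signal over all samples together need no labels, but were not analysed here either.

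Members, roles, partners and markers were chosen with earlier results of these data known. Every member was described, as were the partners with and without a region, except that some listed genes are counted but not reported here by name. Regions were assigned with GENCODE M21 (basic set) in Python 3.11.15 with numpy 2.4.6 and pandas 2.3.3, by scripts tested on simulated data. The main start is the most upstream start of a principal transcript. Reference sequence came from RefSeq's GRCm38. Tetraspanin protein sequences were not used here.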

Additional observations from a re-analysis of the deposited data

How the results depend on the processing

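No paired analysis was possible because no count could be tied to a sample or replicate, and the planned comparison of counts between groups, with its alternatives (another normalization, no filter, the replicate block and leaving out each replicate), was not run. Of 22 alternatives for the other 7 results, 20 stayed within 1.5 times the reported value. The exceptions were the regions given to members, which fell from 96 to 49 with a minimum width of 200 bases, and the promoter regions with an ETS word, which fell from 9 to 3 when only the central 200 bases were searched, where fewer regions and fewer bases enter. Members with a promoter region numbered 20 with all transcripts, against 55.6% of coding genes, 21 with the window set to 1000 bases on either side, against 62.7%, and 15 with regions of at least 200 bases, against 44.4%, which left out Tspan1, Tspan6 and Tspan7. Counts of members cannot exceed 28, so for them the limit of 1.5 times could hardly be passed upward. Without per-sample values, weak accessibility below the peak caller's threshold cannot be told from closed chromatin.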
